A study of Mus musculus with 12 samples.

Results

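The guanylate-binding proteins and the immunity-related GTPases are interferon-induced GTPases that defend cells against microbes living inside them. Their transcripts were followed in mouse macrophages grown from bone marrow. A total of 10 genes was listed: Gbp2, Gbp2b, Gbp3, Gbp6 and Gbp7 of the guanylate-binding proteins, and Irgm1, Irgm2, Igtp, Iigp1 and Ifi47 of the immunity-related GTPases. They are 10 of the 12393 genes measured, and 13 of the 20380 probe sets that carry a single gene symbol were theirs. Where a gene had several probe sets, the one with the highest mean across all 12 arrays was used, and no filter on dim values was set, so all 10 genes entered every test. The main probe sets of Gbp2, Gbp3 and Iigp1 carry names that mark shared probes, so their signal can include related transcripts or isoforms.

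The cells came from mice of the strain given as 129-SvEv-Tac and had 1 of 2 genotypes. IL10-/- cells lack interleukin 10 (IL-10), a cytokine that restrains activated macrophages. p50-/-IL10-/- cells lack it too, and also lack Nfkb1, the gene of the NF-kB subunits p50 and p105. Both genotypes therefore lack Il10, and no group had intact Il10 or a p50 deletion alone. Marrow had been cultured for 5 days in 30% L-cell conditioned medium, which supplies macrophage growth factor, with 10% serum. Cells of each genotype received no stimulus, 1 ng/ml lipopolysaccharide (LPS, a bacterial cell wall component), or 1 ng/ml LPS together with 0.3 ng/ml IL-10, and RNA was taken at 4 h. Each of the 6 groups held 2 arrays, each described as a biological replicate, and 6 µg of total RNA was used per array. How many animals gave marrow, and whether arrays with the same number in different groups share an animal or a day, is not stated in the labels.

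The guanylate-binding proteins are large GTPases that assemble on the membranes of vacuoles and on bacteria that have escaped into the cytosol, and they help to open those compartments and to set off inflammasomes. The immunity-related GTPases are smaller. Irgm1, Irgm2 and Igtp belong to the regulatory branch, which sits on the cell's own membranes and keeps the effector branch inactive there, while Iigp1 (also called Irga6) and Ifi47 (also called Irgd) belong to the effector branch, which loads onto the parasite's vacuole. Genes of both families are switched on by interferons through STAT and IRF transcription factors. In macrophages given LPS, interferon beta made by the cells themselves is a known route to that response, and IL-10 is known to dampen it.

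The start sites of these genes were searched for elements through which interferons act. Windows from 250 bases before to 50 bases after the start were read from the RefSeq promoter table of build GRCm38.p6. That build is the C57BL/6J reference, and the cells were of a 129 strain, so the letters may differ in the cells. The search covered 8 of the 10 genes in 9 windows, since Gbp3 has 2 start sites. No window of Gbp6 or Iigp1 was searched, so the motif counts say nothing about these genes. The 3 motifs searched on both strands were the ISRE core (GAAA, any 2 bases, GAAA), an interferon-stimulated response element to which IRF factors bind, the GAS motif (TTC, any 3 bases, GAA), an element of the interferon gamma response, and GGG followed by any 5 bases and CC, a loose outline of an NF-kB site. An example pair from each family is printed because the results turn on Gbp2b beside its neighbour Gbp2, and on Irgm2 and Igtp. Capitals mark matches to the ISRE core on either strand and to GAS.
Gbp2b, chr3:142594597-142594896, plus strand: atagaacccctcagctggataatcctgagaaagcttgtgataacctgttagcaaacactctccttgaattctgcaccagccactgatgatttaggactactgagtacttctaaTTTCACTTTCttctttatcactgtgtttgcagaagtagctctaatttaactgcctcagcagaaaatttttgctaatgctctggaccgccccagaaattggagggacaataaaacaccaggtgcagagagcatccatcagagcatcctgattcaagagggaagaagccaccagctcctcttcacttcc
Gbp2, chr3:142620413-142620712, plus strand: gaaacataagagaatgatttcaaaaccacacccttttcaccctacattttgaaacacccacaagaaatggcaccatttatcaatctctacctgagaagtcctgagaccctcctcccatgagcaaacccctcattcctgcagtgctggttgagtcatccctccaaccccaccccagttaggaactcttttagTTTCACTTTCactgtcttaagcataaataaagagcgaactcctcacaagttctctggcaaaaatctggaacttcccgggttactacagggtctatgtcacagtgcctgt
Irgm2, chr11:58214727-58215026, plus strand: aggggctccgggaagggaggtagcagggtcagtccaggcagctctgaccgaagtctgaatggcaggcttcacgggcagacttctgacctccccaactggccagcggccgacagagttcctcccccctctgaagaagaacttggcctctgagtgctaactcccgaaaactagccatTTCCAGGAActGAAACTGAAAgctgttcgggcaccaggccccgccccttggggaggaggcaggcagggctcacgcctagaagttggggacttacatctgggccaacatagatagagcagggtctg
Igtp, chr11:58199306-58199605, plus strand: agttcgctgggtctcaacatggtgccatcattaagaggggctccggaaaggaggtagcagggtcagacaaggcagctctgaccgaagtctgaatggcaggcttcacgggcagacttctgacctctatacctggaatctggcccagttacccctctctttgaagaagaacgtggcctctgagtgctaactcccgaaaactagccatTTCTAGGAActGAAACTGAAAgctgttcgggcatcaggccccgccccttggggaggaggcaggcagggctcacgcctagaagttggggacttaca

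The ISRE core was found in 7 of the 9 windows, against 3.44% of 32851 promoter windows of the same length. GAS was found in 3 of 9, against 8.3%, and the NF-kB outline in 5 of 9, against 50.8%. Counted from the start site, the ISRE match begins at base -59 in Gbp2, -53 in Gbp7, -64 in Irgm2 and -34 in Igtp. Gbp3 has overlapping ISRE matches at -45 and -39, and Irgm1 has overlapping ones at -30 and -24. The match of Gbp2b carries the same letters as that of Gbp2, TTTCACTTTC, but begins farther from the annotated start, at -137. In Irgm2 and Igtp a GAS match stands just upstream of the ISRE match, at -75 and -45, without overlapping it, and Gbp7 has GAS matches at -106 and -87. The window of Ifi47 and the second window of Gbp3 hold none of these letters. These are matches of letters in a reference, and nothing on binding was measured here.

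**Figure D1:**
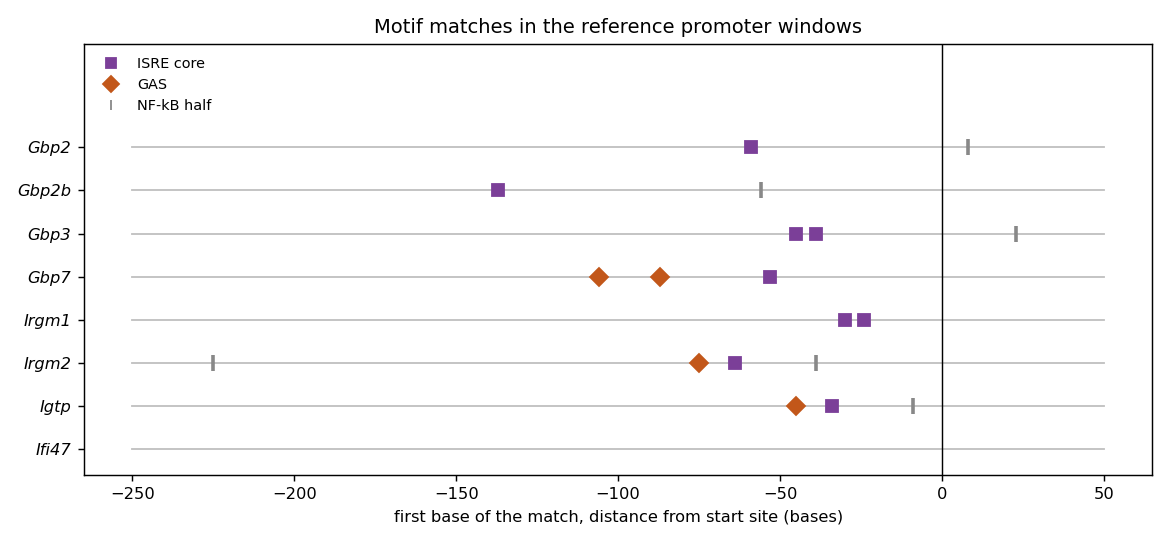
Positions of motif matches in the promoter windows of 8 genes. The x axis gives the distance from the annotated start site in bases, each row is the first window of 1 gene, and marks give the first base of each match to the ISRE core, GAS or the NF-kB outline. ISRE matches lie between -24 and -64 except that of Gbp2b, at -137.

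Values are log2 units after RMA, in which 1 unit is a doubling. The medians of the 12 arrays lay between 6.92 and 6.96, and a mean below 5.60, the highest lower quartile of any array, is called dim here, since RMA gives no detection call. Correlations between the arrays of a group over all genes were 0.992 to 0.997. The members nevertheless differed between the 2 arrays of a group, by more at the median in IL10-/- cells. In IL10-/- cells they were higher on array 1 in 10 of 10 cases without stimulus (median difference 0.90). With LPS 9 of 10 were (0.43), and with LPS plus IL-10 7 of 10 (0.80). The medians over all genes were -0.02, -0.01 and 0.01. In p50-/-IL10-/- cells the members were higher on array 1 in 10 of 10, 8 of 10 and 3 of 10 cases. The corresponding medians were 0.32, 0.24 and -0.05. For the members, results that rest on IL10-/- arrays are therefore also given without the 3 arrays of that genotype numbered 2. That alternative was chosen after the values were seen and is not given for other genes. Each IL10-/- group then has 1 array, which is assumed to vary like the other groups. The share of all genes called in that fit is not given here, so its counts of members have no background beside them. Transcripts of Nfkb1 were not analysed here, and the genotype rests on the labels. The Il10 probe set read 6.54 to 9.11, and where its probes lie relative to the deleted part is not stated in the labels.

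Group differences were tested with limma, and a gene is called at an adjusted p (Benjamini-Hochberg over all 12393 genes) under 0.05. Differences are given with their standard error (SE), with n = 2 arrays in each group. With so few arrays the test borrows its estimate of spread from all genes, and in bulk RNA fewer expressing cells and less RNA per cell cannot be told apart.

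Gbp2b (also called Gbp1), an interferon-induced member of the chromosome 3 cluster, was the gene with the largest difference between the genotypes. In IL10-/- cells it read 5.05 and 4.52 without stimulus, 5.03 and 5.15 with LPS, and 5.17 and 4.53 with LPS plus IL-10. In p50-/-IL10-/- cells it read 10.14 and 10.11 without stimulus, 12.54 and 12.17 with LPS, and 12.32 and 12.40 with LPS plus IL-10. All 6 IL10-/- arrays were dim and overlapped across stimuli, whereas all 6 p50-/-IL10-/- arrays stood at least 4.94 above the highest of them. Ranked by the absolute difference between genotypes among 12393 genes, Gbp2b was number 1 at each of the 3 stimuli. The difference was 5.34 ± 0.21 (SE) without stimulus, 7.27 ± 0.21 with LPS and 7.51 ± 0.21 with LPS plus IL-10, with limma adjusted p = 6.83e-07, 5.12e-08 and 3.67e-08. These correspond to 40.5-fold, 154-fold and 182-fold, and they depend on a dim denominator that may lie at the array's background.

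LPS raised Gbp2b in p50-/-IL10-/- cells by 2.23 ± 0.21, or 4.71-fold. In IL10-/- cells the change was 0.30 ± 0.21 (limma adjusted p = 0.364; 95% interval -0.17 to 0.77). The genotype difference of the LPS response, tested as an interaction, was 1.93 ± 0.30 (limma adjusted p = 0.0148), a value that depends on dim IL10-/- levels. That call was lost when array 1 of unstimulated p50-/-IL10-/- cells was left out (1.95, adjusted p = 0.0636), when array 2 was (1.92, 0.0766), and when array 1 of the LPS group of that genotype was (1.75, 0.0695).

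Gbp2, which is recruited to the vacuole of Toxoplasma and to cytosolic bacteria, was high in every group. It read 9.83 and 8.50 without stimulus, 12.06 and 11.88 with LPS, and 11.26 and 11.30 with LPS plus IL-10 in IL10-/- cells. The p50-/-IL10-/- arrays read 10.30 and 9.97, 12.25 and 12.07, and 11.88 and 11.85 in the same order. The genotypes did not overlap at any stimulus, yet none of the 3 differences was called. They were 0.97 ± 0.31 without stimulus (limma adjusted p = 0.167), 0.19 ± 0.31 with LPS (0.787) and 0.59 ± 0.31 with both (0.219). Without array 1 of unstimulated IL10-/- cells the unstimulated difference was 1.63 with adjusted p = 0.000566. The difference with both agents, 0.59, had adjusted p = 0.00938 without either unstimulated IL10-/- array. The interaction for LPS, -0.78 ± 0.44 (adjusted p = 0.662), became -1.45 with adjusted p = 0.0109 without array 1 of that group. Among the members, the start of Gbp2 lies next to that of Gbp2b. In the fit of all 12 arrays Gbp2 was the only member whose genotype difference was called at none of the stimuli. Fitting only the arrays compared, its difference with both agents was called (0.59, limma adjusted p = 0.00685). Without the 3 IL10-/- arrays numbered 2 that difference was 0.61.

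Gbp3 and Gbp7, further members of the chromosome 3 cluster, had smaller standard errors than Gbp2. Gbp3 read 9.18 and 8.31, then 11.62 and 11.38, then 10.78 and 10.92 in IL10-/- cells for no stimulus, LPS, and LPS with IL-10. The p50-/-IL10-/- arrays read 10.49 and 10.07, 12.51 and 12.58, and 12.48 and 12.33. At each stimulus both p50-/-IL10-/- arrays were above both IL10-/- arrays. The differences were 1.54 ± 0.23, 1.04 ± 0.23 and 1.55 ± 0.23, all called (limma adjusted p = 0.00594, 0.0151 and 0.00162). Leaving out array 1 of unstimulated p50-/-IL10-/- cells gave 1.32 with adjusted p = 0.0628. With LPS the call was lost without IL10-/- array 2 (0.93, adjusted p = 0.0908) and without p50-/-IL10-/- array 1 (1.08, 0.0742) or array 2 (1.01, 0.0752).

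Gbp7 read 8.56 and 8.25, 11.13 and 10.73, and 10.42 and 10.55 in IL10-/- cells. The p50-/-IL10-/- values were 9.53 and 9.35, 12.00 and 11.87, and 12.01 and 11.95. Gbp7 was the steadiest member, and its genotype differences of 1.03 ± 0.14, 1.01 ± 0.14 and 1.50 ± 0.14, near 2.04-, 2.01- and 2.83-fold, were called at each stimulus and in every fit that left out 1 array. A second, dimmer Gbp7 probe set gave 0.65 (adjusted p = 0.118), 1.26 (0.00234) and 2.19 (8.92e-05), so the unstimulated call rests on the main probe set.

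Gbp6, the only member from the chromosome 5 cluster, started from the lowest level. In IL10-/- cells it read 5.15 and 3.61 without stimulus, a dim mean, then 9.07 and 7.72 with LPS and 7.10 and 5.65 with LPS plus IL-10. Its p50-/-IL10-/- arrays read 6.77 and 6.68, 10.54 and 10.69, and 9.74 and 9.75. The IL10-/- arrays were 1.36 to 1.54 apart at each stimulus and the p50-/-IL10-/- arrays 0.02 to 0.15 apart. The genotype difference was 2.34 ± 0.55 without stimulus (limma adjusted p = 0.0556), 2.22 ± 0.55 with LPS (0.0252) and 3.37 ± 0.55 with both (0.00261). The first of these passed without array 1 of unstimulated IL10-/- cells (3.11, adjusted p = 0.0253), and also without any single stimulated IL10-/- array (2.34, 0.0331 to 0.0343). With LPS it failed without IL10-/- array 2 (1.55, 0.16) and without either p50-/-IL10-/- array (2.30 and 2.15, each 0.106).

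The 3 regulatory immunity-related GTPases all lie on chromosome 11. Irgm1, which guards host membranes and is needed for resistance to mycobacteria, read 8.64 and 7.80 without stimulus, 10.98 and 10.71 with LPS, and 9.34 and 8.76 with LPS plus IL-10 in IL10-/- cells. Without p50 it read 9.35 and 9.04, 11.76 and 11.46, and 10.95 and 11.12. With IL-10 the IL10-/- arrays stood nearer to the unstimulated than to the LPS level, and the p50-/-IL10-/- arrays nearer to the LPS level. Irgm2 read 8.43 and 7.51, 11.66 and 11.19, and 9.35 and 8.39 in IL10-/- cells, and 8.69 and 8.40, 12.12 and 11.93, and 11.52 and 11.53 in p50-/-IL10-/- cells. Igtp, also called Irgm3, read 8.88 and 8.04, 11.66 and 11.04, and 9.90 and 8.83 in the former, and 9.13 and 8.74, 12.16 and 11.81, and 11.49 and 11.72 in the latter. For Irgm2 and Igtp the genotypes overlapped without stimulus and were apart under both stimuli.

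Of the effector branch, Ifi47, on chromosome 11, read 10.03 and 8.60, 12.64 and 11.99, and 11.15 and 9.82 in IL10-/- cells. Without p50 it read 10.42 and 9.94, 13.13 and 12.80, and 12.60 and 12.91. Iigp1, on chromosome 18, read 7.33 and 5.93, 11.42 and 8.59, and 8.13 and 6.21 in IL10-/- cells, and 8.14 and 7.32, 12.64 and 12.29, and 10.996 and 11.84 in p50-/-IL10-/- cells. The IL10-/- arrays of Iigp1 with LPS were 2.83 apart, the widest gap of any member in any group.

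**Figure D2:**
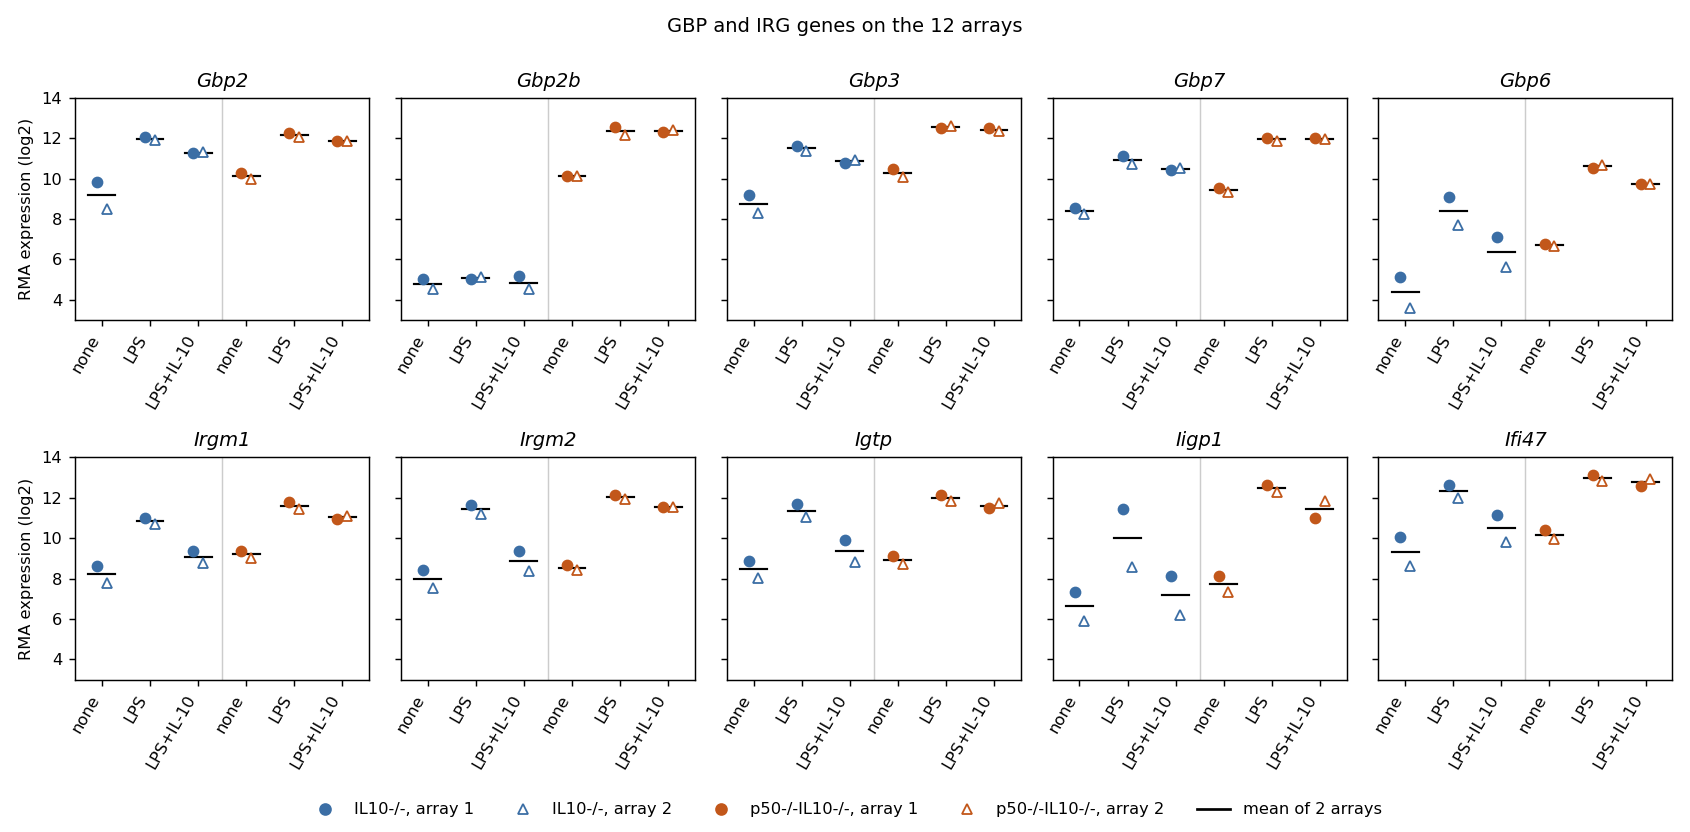
Log2 RMA value of each of the 10 genes on each of the 12 arrays. Each panel is 1 gene, the x axis gives the stimulus, colour gives the genotype, circles and triangles are arrays 1 and 2, and short bars are the group means (n = 2). Gbp2b stays near 5 in IL10-/- cells at every stimulus, and the other genes rise with LPS in both genotypes.

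LPS raised nearly all of the 10 members in both genotypes. In IL10-/- cells 9 of 10 members rose, all but Gbp2b, against 7.76% of all genes called higher. Of the same members, 10 of 10 rose in p50-/-IL10-/- cells, against 10.3%. The median change of the members was 2.85 in IL10-/- cells and 2.65 in p50-/-IL10-/- cells, beside medians of -0.01 over all genes in each. The gains of the called members in IL10-/- cells ran from 2.52 ± 0.14 for Gbp7, or 5.74-fold, to 4.01 ± 0.55 for Gbp6, or 16.2-fold. In p50-/-IL10-/- cells they ran from 2.02 ± 0.31 for Gbp2, or 4.07-fold, to 4.73 ± 0.85 for Iigp1, or 26.6-fold. Irgm2 rose 10.9-fold in IL10-/- cells and 11.1-fold in the other genotype. Iigp1 in IL10-/- cells, with 3.38 ± 0.85 (limma adjusted p = 0.0142), lost its call without IL10-/- LPS array 1 (1.97, adjusted p = 0.115) or unstimulated array 2 (2.68, 0.115). Without the 3 IL10-/- arrays numbered 2, 9 members were called in IL10-/- cells, and the changes of these were 2.23 to 4.09.

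IL-10 given with LPS lowered the regulatory GTPases, and Ifi47 of the effector branch, in IL10-/- cells. There 4 of 10 members were called lower, against 2.82% of all genes: Irgm2 by 2.55 ± 0.32 log2 units, 5.87-fold, Igtp by 1.99 ± 0.36, 3.96-fold, Irgm1 by 1.79 ± 0.26, 3.47-fold, and Ifi47 by 1.83 ± 0.48, 3.57-fold. Their limma adjusted p were 0.000899, 0.00766, 0.00215 and 0.0488. All of them are immunity-related GTPases on chromosome 11. Iigp1 had the largest fitted difference, -2.84 ± 0.85, with adjusted p = 0.0915. Of the 5 guanylate-binding proteins none was called lower by limma, although 4 had an unadjusted p under 0.05 and these 4 were lower in both IL-10 arrays than in both LPS arrays: Gbp6 by -2.02 ± 0.55 (adjusted p = 0.0604), Gbp2 by -0.69 ± 0.31 (0.289), Gbp3 by -0.65 ± 0.23 (0.165) and Gbp7 by -0.45 ± 0.14 (0.109). The other Gbp7 probe set did pass, at -0.93 ± 0.19 (limma adjusted p = 0.0164). The median change was -1.99 for the immunity-related GTPases and -0.65 for the guanylate-binding proteins, beside 0.01 over all genes. Without overlap of the arrays, 9 of 10 members were lower, against 17.2% of all genes.

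The IL-10 calls depended on single arrays. Irgm1 and Irgm2 were called lower in each fit that left out 1 array. Igtp was not called without IL10-/- LPS array 1 (-1.67, adjusted p = 0.0647) or without LPS plus IL-10 array 2 (-1.45, 0.0553). Ifi47 was called only with all arrays or when an unstimulated IL10-/- array or LPS plus IL-10 array 1 was left out. Without LPS array 1 it stood at -1.51 (adjusted p = 0.27), without LPS array 2 at -2.16 (0.0503), without LPS plus IL-10 array 2 at -1.17 (0.323), and without any single p50-/-IL10-/- array at -1.83 (0.0695 to 0.0757). Iigp1 and Gbp7 were called without LPS array 2 (-4.25 and -0.64, adjusted p = 0.00853 and 0.0214), and Gbp6 without it (-2.70, 0.0239) or without LPS plus IL-10 array 1 (-2.75, 0.033). The number of members called lower was 2 without LPS array 1 and also without LPS plus IL-10 array 2, 6 without LPS array 2, 5 without LPS plus IL-10 array 1, and 3 without any single p50-/-IL10-/- array. It was 7 without either unstimulated IL10-/- array, where Gbp2, Gbp3 and Gbp6 joined. Without the 3 IL10-/- arrays numbered 2, 9 were called lower, all but Gbp2b, with Irgm2 at -2.31 (limma adjusted p = 0.000301).

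In p50-/-IL10-/- cells limma called 0 of 10 members lower with IL-10, and 0 had an unadjusted p under 0.05, against 2.87% of all genes called lower. The differences ran from -1.05 ± 0.85 for Iigp1 to 0.05 ± 0.14 for Gbp7, with a median of -0.34 beside 0.05 over all genes. For 7 of 10 members both IL-10 arrays were below both LPS arrays, against 19.2% of all genes. The 95% interval was -1.15 to 0.00 for Irgm1, -1.22 to 0.22 for Irgm2, -1.17 to 0.41 for Igtp and -1.27 to 0.84 for Ifi47, so these arrays do not separate a modest fall from none. In the fit without the 3 IL10-/- arrays numbered 2, where the estimate of spread is drawn from fewer arrays, 3 members were called lower: Gbp6 (-0.87, adjusted p = 0.000982), Irgm2 (-0.50, 0.0344) and Irgm1 (-0.58, 0.0411).

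**Figure D3:**
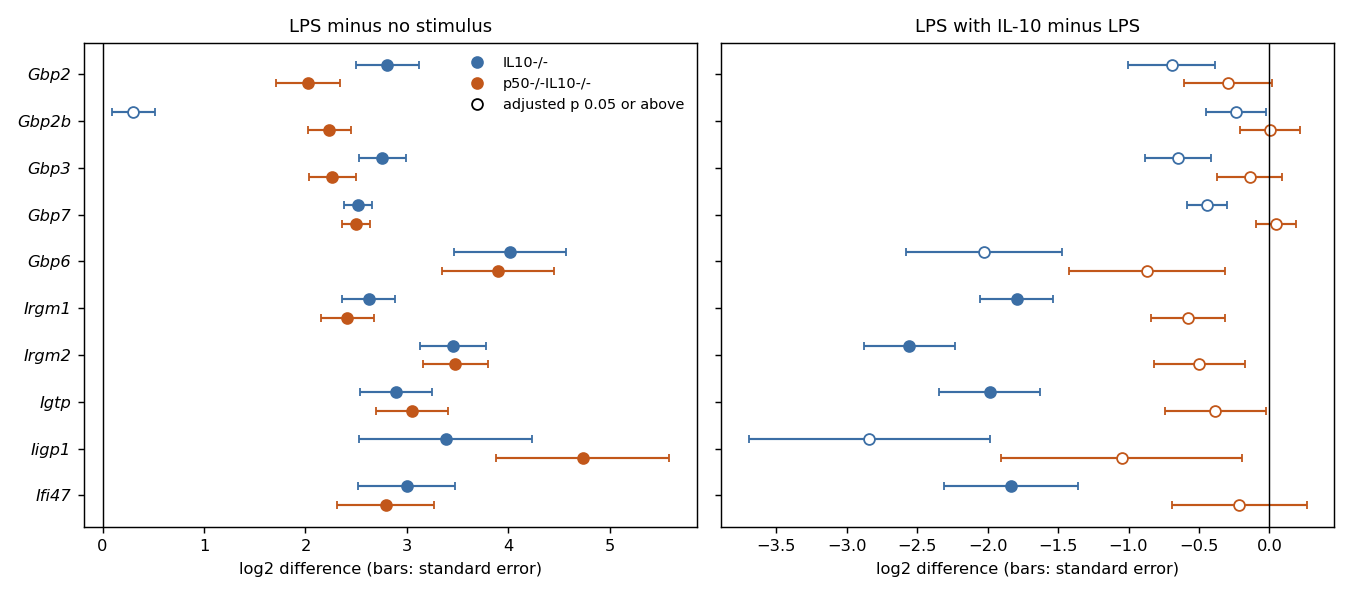
Log2 differences of the 10 genes for LPS against no stimulus and for LPS with IL-10 against LPS alone, in each genotype. Points are limma estimates from 2 arrays a group and bars their standard errors, and open points were not called. IL-10 differences of the immunity-related GTPases lie between -2.84 and -1.79 in IL10-/- cells and between -1.05 and -0.21 in p50-/-IL10-/- cells.

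Whether IL-10 acted differently in the genotypes was tested as an interaction. The difference of the IL-10 effects was positive for 10 of 10 members, that is, the fall was smaller or absent in p50-/-IL10-/- cells, with a median of 1.18 beside 0.04 over all genes. It was 2.06 ± 0.46 for Irgm2, 1.79 ± 1.21 for Iigp1, 1.62 ± 0.67 for Ifi47, 1.60 ± 0.50 for Igtp and 1.22 ± 0.37 for Irgm1, and 0.24 to 1.15 for the guanylate-binding proteins. None was called by limma, against 0.0968% of all genes called higher. The lowest limma adjusted p was 0.171, for Irgm2. Before adjustment 5 of 10 had p under 0.05, and the share of all genes at that unadjusted threshold is not given here. Without the 3 IL10-/- arrays numbered 2 the interaction was called for Irgm2 (1.81, adjusted p = 0.019) and Gbp6 (1.10, 0.0333), and that of Gbp2b was -0.14. For the LPS response, Gbp2b alone was called, against 0.734% of all genes called higher, and the other 9 members had interaction values from -0.78 to 1.35.

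Cells given both agents were also compared with unstimulated cells, a comparison that shares arrays with those above. In IL10-/- cells 5 of 10 members remained above the unstimulated level, against 6.94% of all genes called higher. These were Gbp2 at 2.11 ± 0.31, Gbp3 at 2.10 ± 0.23, Gbp7 at 2.08 ± 0.14, Gbp6 at 1.99 ± 0.55 and Irgm1 at 0.83 ± 0.26, with limma adjusted p of 0.000788, 0.000116, 3.99e-06, 0.028 and 0.0487. Irgm2 at 0.90 ± 0.32 (adjusted p = 0.082), Igtp at 0.90 ± 0.36 (0.111), Ifi47 at 1.16 ± 0.48 (0.125) and Iigp1 at 0.54 ± 0.85 (0.758) did not pass. All 10 of 10 were above it in p50-/-IL10-/- cells, against 16.7%, by 1.73 ± 0.31 for Gbp2 to 3.68 ± 0.85 for Iigp1.

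In that comparison single arrays again mattered. In IL10-/- cells the count was 3 without unstimulated array 2 and without LPS plus IL-10 array 1, and 8 without unstimulated array 1 and without LPS plus IL-10 array 2. Irgm1 was called in none of the fits without an LPS array or a p50-/-IL10-/- array (0.83, adjusted p from 0.0517 to 0.0682), and was 0.41 (0.37) without unstimulated array 2 and 0.54 (0.333) without LPS plus IL-10 array 1. Gbp6 fell to 1.23 (0.23) without unstimulated array 2 and to 1.27 (0.232) without LPS plus IL-10 array 1. Irgm2, Igtp and Ifi47 passed without unstimulated array 1, at 1.36 (0.0205), 1.33 (0.0491) and 1.88 (0.0222), and without LPS plus IL-10 array 2, at 1.38 (0.0164), 1.44 (0.0207) and 1.83 (0.0316). Iigp1 in p50-/-IL10-/- cells lost its call without unstimulated array 2 (3.28, 0.0559) and without LPS plus IL-10 array 2 (3.26, 0.0567). Without the 3 IL10-/- arrays numbered 2, 7 members were called in IL10-/- cells, all but Gbp2b, Irgm1 and Iigp1.

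Between the genotypes, every member was higher in p50-/-IL10-/- cells at every stimulus in the fitted means. Without stimulus 3 of 10 were called higher, against 1.26% of all genes: Gbp2b, Gbp3 and Gbp7. With LPS 4 of 10 were, against 5.66%, namely those and Gbp6. With LPS plus IL-10 9 of 10 were, against 7.58%, all but Gbp2. The medians of the members were 1.00, 0.89 and 2.26, beside -0.01, -0.02 and 0.04 over all genes. Both p50-/-IL10-/- arrays lay above both IL10-/- arrays for 6 of 10 members without stimulus, against 21.3% of all genes, and for 10 of 10 with LPS and 10 of 10 with both agents, against 21.6% and 35.4%. Without the 3 IL10-/- arrays numbered 2 the counts were 4, 4 and 10 and the medians 0.48, 0.72 and 1.70, and Gbp6 joined the calls without stimulus (1.58, adjusted p = 0.000381).

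With LPS plus IL-10 the genotype differences of the immunity-related GTPases ran from 1.98 to 4.25, beside 0.59 to 7.51 for the guanylate-binding proteins. They were 4.25 ± 0.85 for Iigp1, or 19.0-fold, 2.66 ± 0.32 for Irgm2, 6.30-fold, 2.27 ± 0.48 for Ifi47, 4.83-fold, 2.24 ± 0.36 for Igtp, 4.72-fold, and 1.98 ± 0.26 for Irgm1, 3.96-fold. Their limma adjusted p were 0.0075, 0.000492, 0.00914, 0.00223 and 0.000752. With LPS alone the same genes stood at 0.60 to 0.77 for the chromosome 11 members, none called and 1 with an unadjusted p under 0.05, and at 2.46 ± 0.85 for Iigp1 (adjusted p = 0.0928). Without array 2 of the LPS plus IL-10 group, in either genotype, the calls of Ifi47 (1.61 and 2.12; adjusted p = 0.0795 and 0.0672) and Iigp1 (3.29 and 3.83; 0.069 and 0.0627) were lost. With LPS, Iigp1 passed without IL10-/- array 1 (3.87, 0.00882), and Irgm1 passed without either unstimulated IL10-/- array (0.77, 0.032). Without stimulus, Irgm1 passed without IL10-/- array 1 (1.40, 0.0196).

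Gbp2, Gbp2b, Gbp3 and Gbp7 lie on chromosome 3, where Nfkb1 lies too, so DNA inherited with the Nfkb1 deletion could reach these genes. The effects of p50 loss and of a linked stretch of chromosome cannot be told apart for them in this design. Set out by chromosome, 3 of 4 chromosome 3 members were called higher without stimulus, 3 of 4 with LPS and 3 of 4 with both agents. Of the 6 members elsewhere, 0 of 6, 1 of 6 and 6 of 6 were called by limma, and without stimulus 2 of the 6 had an unadjusted p under 0.05. The median genotype differences were 1.28, 1.03 and 1.53 on chromosome 3 and 0.92, 0.71 and 2.46 elsewhere. They were 0.99, 0.87 and 1.59 on chromosome 3 and 0.27, 0.50 and 1.94 elsewhere without the 3 IL10-/- arrays numbered 2. Among all genes, 1.26%, 5.66% and 7.58% were called higher, and 2.57%, 12.4% and 18% in either direction.

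The genes around Nfkb1 gave the following. Of the 20 measured genes on each side of it in gene order, 40 in all, 1 was called without stimulus (2.5%), 5 with LPS (12.5%) and 3 with both (7.5%), with no difference above 0.87. The single one without stimulus was Eif4e, the cap-binding translation factor, at 0.50 ± 0.10 (limma adjusted p = 0.0301). Of the 21 measured genes between Nfkb1 and the Gbp genes, all but 1 of them in the first set too, limma called 9.52%, 14.3% and 0%, and 4 had an unadjusted p under 0.05 with both agents. Of the 20 measured genes beyond the Gbp genes, 10%, 25% and 20% were called, and Mcoln3, a lysosomal cation channel gene, was the largest. It read 6.50 to 7.71 on the 6 IL10-/- arrays and 5.09 to 5.34 on the 6 p50-/-IL10-/- arrays, where it was dim, with differences of -2.02 ± 0.32, -1.64 ± 0.32 and -2.03 ± 0.32. Over all 626 measured genes of chromosome 3 other than the members the shares were 3.04%, 11.5% and 16.3%, and on the other chromosomes 2.52%, 12.4% and 18%. Whether the DNA around Nfkb1 differs between the lines was not measured.

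**Figure D4:**
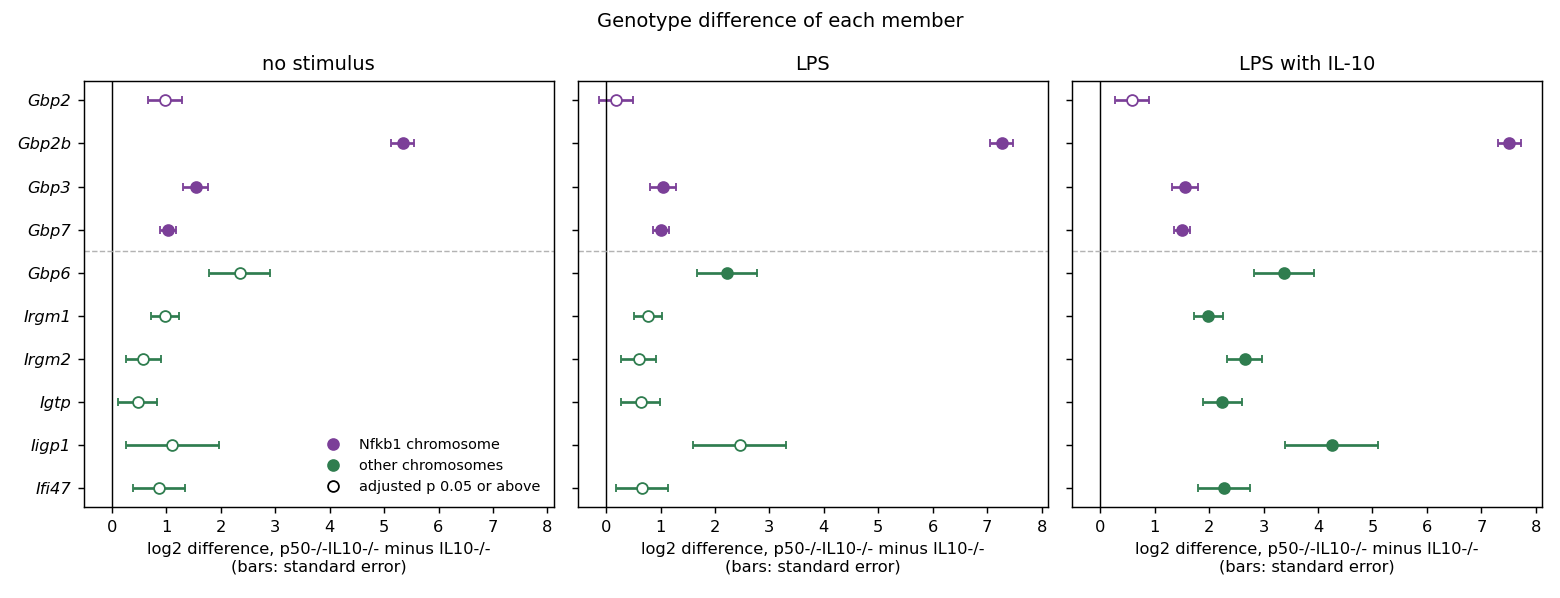
Difference between p50-/-IL10-/- and IL10-/- cells for each of the 10 genes at each stimulus, in log2 units. Points are limma estimates with standard errors (n = 2 arrays a group), open where not called, with the chromosome 3 genes above the dashed line. Gbp2b stands apart at 5.34 to 7.51, and the genes outside chromosome 3 reach 1.98 to 4.25 with LPS plus IL-10.

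Some markers of other cell types differed between the genotypes too. Among all genes, 2.57%, 12.4% and 18% were called in either direction without stimulus, with LPS and with both agents. The shares called higher were 1.26%, 5.66% and 7.58%. The mean of 8 macrophage markers was 11.76 to 12.16 on every array. Limma called 0 of the 8 between genotypes without stimulus, where 1 had an unadjusted p under 0.05, 2 higher and 1 lower with LPS, and 1 higher and 2 lower with both agents. Mertk, a receptor for dying cells, was higher by 1.29 and 1.62 under the 2 stimuli, and Adgre1, a macrophage surface receptor, had differences of -0.63 and -0.57. The 7 measured neutrophil markers had means of 8.89 to 9.12 on IL10-/- arrays and 8.24 to 8.43 on p50-/-IL10-/- arrays, with 6, 7 and 5 of 7 called lower at the 3 stimuli. The 5 dendritic cell markers had means of 5.99 to 6.22 and 6.55 to 6.85, with 1, 1 and 3 of 5 called higher and median differences of 0.01, 0.01 and 0.23. Itgax, the CD11c integrin chain, was higher by 2.54 to 2.88 at each stimulus, while Flt3 and Zbtb46 were called with both agents alone, at 0.27 and 0.23. In every group 3 of the 5 were dim, Zbtb46 among them. The 5 stromal markers had means of 6.20 to 6.84 and 5.68 to 6.01, with 1, 2 and 1 of 5 called lower. The last count is near the share of all genes called in either direction. Of the 9 measured T and NK cell markers none was called between genotypes by limma, with 2, 1 and 3 at an unadjusted p under 0.05 and means of 5.68 to 5.86. Of the 4 B cell markers, at 5.63 to 6.00, none was called and 0 had an unadjusted p under 0.05 at any stimulus. The part of these cell types in the genotype differences was not tested.

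Most members shared the ends of their order of levels. For all 10 the unstimulated IL10-/- group had the lowest mean, which overlapped IL10-/- cells given both agents for Gbp2b, Irgm2, Igtp, Iigp1 and Ifi47. For 8 of 10 p50-/-IL10-/- cells given LPS were highest, and for Gbp2b and Gbp7 those given LPS plus IL-10 were, with overlapping arrays. For Irgm1, Irgm2, Igtp, Iigp1 and Ifi47, p50-/-IL10-/- cells given LPS plus IL-10 overlapped IL10-/- cells given LPS alone. For Irgm2, Igtp and Ifi47, IL10-/- cells given both agents overlapped unstimulated p50-/-IL10-/- cells, and for Gbp6, Irgm1 and Iigp1 these groups overlapped as well. As a description over the 12 arrays, which share groups, each member's Pearson correlation with the mean of the other 9 was 0.947 to 0.988, except for Gbp2 at 0.890 and Gbp2b at 0.613. The 8 genes outside the family whose profile was nearest to the members' mean, among 1387 candidates, were Tap2 (r = 0.990), Tor1aip2 (0.986), Oasl1 (0.986), Helz2 (0.985), Adar (0.984), Tap1 (0.984), Ifih1 (0.983) and Cmpk2 (0.983). Tap1 and Tap2 form the peptide transporter of antigen presentation, Ifih1 is a sensor of double-stranded RNA, and Adar edits such RNA.

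The interferon pathway itself was read from lists of ligands and receptors, of kinases and transcription factors, and of inhibitors. Ifng, the gene of the strongest known inducer of these GTPases, was dim in every group, at 4.12 to 4.35, as was Ifna4. Ifnb1, the gene of interferon beta, averaged 6.02, 6.61 and 5.81 in IL10-/- cells without stimulus, with LPS and with both agents, and 5.84, 7.91 and 6.51 in p50-/-IL10-/- cells. It rose with LPS by 0.59 ± 0.18 and by 2.06 ± 0.18, and the interaction was 1.48 ± 0.26 (limma adjusted p = 0.026). IL-10 lowered it by 0.80 ± 0.18 and by 1.40 ± 0.18 log2 units. Of the receptor genes, Ifngr1 was lower in p50-/-IL10-/- cells at each stimulus (-0.70, -0.42 and -0.75) and Ifnar1 with LPS (-0.79) and with both agents (-0.93). Over the 7 ligand and receptor genes, 1 was called higher and none lower with LPS in IL10-/- cells, and 1 in each direction in p50-/-IL10-/- cells.

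Of 11 measured kinases and transcription factors, 5 rose and 1 fell with LPS in IL10-/- cells and 6 rose in p50-/-IL10-/- cells. Irf1, a factor that binds ISRE elements, averaged 10.35, 12.54 and 11.22 in IL10-/- cells and 10.47, 12.98 and 12.71 in p50-/-IL10-/- cells. IL-10 lowered it by 1.32 ± 0.07 in the former (limma adjusted p = 8.12e-06), and the interaction was 1.06 ± 0.10 (adjusted p = 0.00295). Stat2, a transcription factor of type I interferon signalling, rose by 2.38 ± 0.41 and 2.46 ± 0.41 with LPS. Jak2 rose by 2.00 ± 0.08 and 1.99 ± 0.08. Between genotypes limma called 0 of 11 without stimulus, where 3 had an unadjusted p under 0.05, and 5 were higher with LPS and 6 higher and 1 lower with both agents, where Stat2 (2.16 ± 0.41), Irf7 (2.76 ± 0.73) and Irf1 (1.49 ± 0.07) were the largest. Irf7, like the members, differed between the IL10-/- arrays, at 10.01 and 7.85 without stimulus. Stat2 spanned 8.85 to 10.15 on the IL10-/- arrays given LPS.

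Of 4 inhibitors, 3 rose with LPS in each genotype. Socs1, which blocks JAK kinases, rose by 1.67 ± 0.38 in IL10-/- cells and 3.97 ± 0.38 in p50-/-IL10-/- cells. Its IL10-/- arrays with LPS spanned 7.45 to 9.05. The genotype difference of the LPS response was called by limma for 0 of the 4 inhibitors, and 2 had an unadjusted p under 0.05. Usp18, which blocks signalling at the type I interferon receptor, rose by 3.60 ± 0.57 and 3.21 ± 0.57. Its IL10-/- arrays spanned 7.08 to 8.52 without stimulus, 10.92 to 11.87 with LPS and 7.69 to 9.58 with both agents. With both agents Usp18 was higher in p50-/-IL10-/- cells by 3.32 ± 0.57 and Socs1 by 1.99 ± 0.38. Of 11 further guanylate-binding protein and immunity-related GTPase genes only Gbp8 was measured, and it was dim throughout, with group means of 3.77 to 4.44. The ATG8 conjugation system guides these GTPases to vacuoles. Of its 10 measured genes, 1 rose and 4 fell with LPS in each genotype, with medians of -0.29 and -0.24. Between genotypes 0 of 10 were called by limma without stimulus or with LPS, where 1 and 0 had an unadjusted p under 0.05, and Atg5 alone was lower with both agents (-0.58 ± 0.12).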

How the data were processed

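The authors deposited log2 expression values of 22690 probe sets on 12 Affymetrix arrays. RMA and limma are named in the submitters' processing notes without versions, roles or options. RMA removes background, brings all arrays to 1 distribution and combines probes into probe sets, so shifts in overall RNA content cannot be seen and changes of dim genes are compressed. The number of arrays limits the precision.

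From these values 64 control probe sets, 691 with several genes and 1555 with no gene were left out. For each of 12393 genes the brightest probe set on average was used. Names came from the platform annotation, in which 20351 probe sets matched the mouse gene table. The build of that annotation is not given, so coordinates are printed for promoter windows only.

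Group means over all 12 arrays were fitted with limma 3.58.1 in R 4.3.3, with 6 residual and 4.47 prior degrees of freedom, for 11 contrasts. Tests were two-sided, with Benjamini-Hochberg adjustment and a threshold of 0.05, and the code was tested on simulated data. With 2 arrays against 2, permuting arrays cannot reach that threshold. Folds were computed from the fitted log2 differences. Whether arrays of a group come from separate animals is not stated, so p-values measure only the spread between these arrays, which may be technical in part.

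The members and lists were chosen with earlier results of these data known. All members and listed genes could be named, along with the 8 other genes whose profile was nearest to the members' mean (highest group mean above the median, group means spanning at least 1 log2) and called neighbours of Nfkb1. Mcoln3, beyond the Gbp genes, was chosen after its values were seen. Alternatives were other probe set summaries, centring, a filter on dim genes, other variance priors, fewer arrays in the fit, array number as a block, a 2-fold threshold, and leaving out each array.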

Additional observations from a re-analysis of the deposited data

Results flagged for a closer look

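The fitted LPS response of Gbp2b was 1.93 log2 units larger in p50-/-IL10-/- cells by a test of the difference itself (limma adjusted p = 0.0148). Its IL10-/- values were dim at every stimulus, so the response there may not be measurable, and the call was lost in 3 of the fits that left out 1 array. Ifnb1 differed in its response to LPS, with a difference of 1.48 (limma adjusted p = 0.026). Irf1 differed in its response to IL-10, with a difference of 1.06 (limma adjusted p = 0.00295). No group was large enough to look for a single array far from the others.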

How the results depend on the processing

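Of the fits of single members under the alternatives, 2284 kept their side of the threshold, 112 newly passed it and 57 no longer passed it. None changed sign where the main or the alternative fit passed. Differences of Gbp2b that passed in neither did, as for LPS in IL10-/- cells. That one went from 0.30 to -0.03 without the 3 IL10-/- arrays numbered 2. The count of members called for LPS ran from 8 to 9 in IL10-/- cells and was 10 in p50-/-IL10-/- cells when 1 array was left out. For IL-10 with LPS it ran from 2 to 7 in IL10-/- cells and stayed 0 in p50-/-IL10-/- cells. For both agents against none it ran from 3 to 8 and from 9 to 10. Between genotypes it ran from 2 to 6 without stimulus, from 2 to 5 with LPS and from 7 to 10 with both agents. The interaction counts ran from 0 to 2 for LPS and stayed 0 for IL-10. Fitting only the arrays compared gave 3 for IL-10 in p50-/-IL10-/- cells and 3 for both agents against none in IL10-/- cells, where a trended, robust prior also gave 3. Without the 3 IL10-/- arrays numbered 2, IL-10 counts were 9 in IL10-/- cells, 3 in p50-/-IL10-/- cells and 2 for the interaction. Shares of all genes called under these alternatives, or under the blocks below, are not given here. The counts therefore cannot be set against how many genes each fit called. The cause of these shifts was not tested.

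Array numbers did not pair the samples by the rule used: correlations of array differences were 0.398 to 0.595 within IL10-/- cells, but -0.344 and -0.492 for p50-/-IL10-/- cells given both agents. With array number as a replicate block within genotype, the counts were 6 and 3 for IL-10 in IL10-/- and p50-/-IL10-/- cells, 8 for both agents against none in IL10-/- cells, 7 and 8 for the genotypes without stimulus and with LPS, and 5 for the IL-10 interaction (Gbp6, Ifi47, Igtp, Irgm1 and Irgm2). With a block across genotypes they were 6 for IL-10 in IL10-/- cells, 8 for both agents against none in IL10-/- cells, 5 and 6 for the genotypes without stimulus and with LPS, and 1 for the IL-10 interaction. With the numbers of the p50-/-IL10-/- arrays given both agents crossed, a choice made after the values were seen, the block gave 7 and 5 for IL-10 in the 2 genotypes, 8 for both agents against none in IL10-/- cells, 10 and 9 for the genotypes without stimulus and with LPS, and 6 for the IL-10 interaction.

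With the mean of all probe sets, Ifnar2 reversed: it was 0.34 for IL-10 in p50-/-IL10-/- cells and -0.35 between genotypes with LPS. Dim values near background limit the folds of Gbp2b and unstimulated Gbp6.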
